A study of Mus musculus with 4 samples.

Results

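Atf3, Jun, Junb, Jund, Fos, Fosb, Fosl2, Egr1, Maff and Ddit3 were followed in nuclei of the mouse thalamus after a haemorrhage. The Atf3 gene lies at chr1:191170296-191218039 (GRCm38, minus strand). All 10 genes were found by symbol among the 40091 genes of the expression files. They were chosen by their measured UMIs per nucleus and CPM in COL against NS, as known from earlier results of these data, so their differences between the groups are given below as a description with no test. Nuclei came from adult wild-type mice of 2 groups. NS mice had saline injected into VPM and VPL, sensory relay nuclei of the thalamus, on the right side, and COL mice had collagenase IV (Coll IV) injected at the same place. Collagenase digests the collagen around vessels, which then bleed. Tissue was taken a week later, each library pooled several mice, and there were 2 libraries per group, so errors describe the spread between 2 pools.

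Most of these proteins are basic leucine zipper (bZIP) factors, which bind DNA as pairs. Jun, Junb and Jund pair with Fos, Fosb and Fosl2 to form AP-1, a factor that many stimuli switch on within minutes. Atf3 and Ddit3 (also called CHOP) are bZIP factors of the stress response, and Atf3 is widely used as a marker of neurons whose axons were injured. Maff is a small Maf protein, and Egr1 is a zinc finger factor induced by neuronal activity.

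The libraries held between 68746459 and 77557870 UMIs (unique molecular identifiers, each standing for 1 captured RNA molecule), and the median nucleus held 6489 and 4649 UMIs in the NS libraries and 8664 and 8691 in the COL libraries. Nuclei were given a cell type by their marker genes. Neurons, oligodendrocytes, astrocytes, microglia, oligodendrocyte precursors (OPC) and committed oligodendrocyte precursors (COP) had at least 20 nuclei in every library. Macrophages were 225 and 305 nuclei in the COL libraries and 8 nuclei in NS2, and were described in COL only. RNA of neuronal genes was found in all types, and the 6 neuronal markers together reached 13.9% to 24.4% of their neuronal level in oligodendrocytes, astrocytes and microglia. Levels are given as CPM, the UMIs of a gene per 1000000 UMIs of the cell type, in the order NS1, NS2, COL1 and COL2. Fewer expressing cells and less RNA per cell cannot be told apart in such sums. In each type with at least 20 nuclei in every library, the median COL nucleus held more UMIs than the median NS nucleus. A gene lower in CPM in COL need therefore not be lower in UMIs per nucleus.

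The stretches before the start sites of Atf3 and Jun are shown because Atf3 had the largest difference between the groups and its partner Jun had little. They were taken from RefSeq (GRCm38.p6), in which 9 of the 10 genes matched an entry, at chr1:191183336-191183583 and chr4:95052223-95052472, both on the minus strand, 5′ to 3′. Capitals mark an 8-base match that resembles the CRE or AP-1 element:
Atf3: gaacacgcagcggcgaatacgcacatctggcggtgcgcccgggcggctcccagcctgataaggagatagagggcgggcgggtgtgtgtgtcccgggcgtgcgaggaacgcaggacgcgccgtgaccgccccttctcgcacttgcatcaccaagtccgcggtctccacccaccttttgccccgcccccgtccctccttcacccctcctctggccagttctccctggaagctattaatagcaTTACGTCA
Jun: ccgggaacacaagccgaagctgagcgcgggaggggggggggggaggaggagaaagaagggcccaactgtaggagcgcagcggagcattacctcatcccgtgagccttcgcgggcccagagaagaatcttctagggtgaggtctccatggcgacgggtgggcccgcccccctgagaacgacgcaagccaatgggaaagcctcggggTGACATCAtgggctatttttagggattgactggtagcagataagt
The letters TTACGTCA lay 10 to 3 bases before the Atf3 start and were present on either strand in 0.448% of 32851 promoter windows of 250 bases. TGACATCA lay 45 to 38 bases before the Jun start and also before 1 start of Maff, and was present in 2.93% of the windows. Of the other motifs searched on both strands, the AP-1 element TGACTCA was found before Ddit3 (4.46% of windows), the full CRE TGACGTCA before another start of Maff (1.55%) and TATAAA before Fos (12.4%). These matches describe letters only, and the Atf3 window touches an annotated Atf3 exon.

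Atf3 was close to absent from the NS thalamus. The NS libraries held 7 and 10 Atf3 UMIs over all nuclei and the COL libraries 626 and 673. Of the COL UMIs, neurons held 53.5% and 38.3%, macrophages 16.1% and 18.1%, microglia 6.39% and 13.8%, and oligodendrocytes 5.91% and 10.3%. Of the COL nuclei, neurons were 48.4% and 42.2%, macrophages 3.79% and 4.87%, microglia 5.78% and 8.46%, and oligodendrocytes 27.3% and 25.2%. Nuclei better explained as a mixture of types held 8.63% and 9.21% of the UMIs, and those of no clear type 6.87% and 7.28%.

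In neurons, the Atf3 level was 0.108 and 0.113 CPM in NS and 6.84 and 5.98 CPM in COL. Both COL libraries lay far above both NS libraries, with means of 0.111 ± 0.00316 and 6.41 ± 0.607 CPM (SD, n = 2) and a fitted log2 fold change of 6.01 (SE 0.37). Of all genes fitted in neurons, 19.8% had both COL libraries above both NS libraries. The NS value rests on 11 UMIs, and the pooled ratio of 58.4 had a 95% exact counting interval of 32.4 to 118.

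In microglia, the Atf3 level was 1.34 and 3.86 CPM in NS and 26.3 and 37.7 CPM in COL, a log2 fold change of 3.61 (SE 0.55). Nuclei near the limit of the gate carried part of this: at 2000 UMIs per nucleus, 11 and 24 COL microglia had an Atf3 UMI and 324 and 498 had none, and with a stricter gate these were 3 and 10 against 219 and 380, with a log2 fold change of 3.15. NS microglia had 0 and 2 against 200 and 177, and 0 and 2 against 191 and 159 with the stricter gate. The share in COL1 thus lay close to that in NS2 with the stricter gate. In oligodendrocytes the Atf3 level was 0 and 0.0869 CPM in NS and 3.93 and 6.73 CPM in COL. The single NS UMI there gave a ratio of 103 with a counting interval of 18.1 to 4114. Of the 69 UMIs in COL2, 18 lay in 1 nucleus. At 2000 UMIs per nucleus, 7 and 16 COL oligodendrocytes had an Atf3 UMI and 1612 and 1558 had none, and with a stricter gate these were 2 and 12 against 1320 and 1417, with a log2 fold change of 6.04. In astrocytes no UMI was seen in NS, and COL had 5.25 and 2.22 CPM on 6 and 4 UMIs. The pooled COL level was 9.40-fold a floor of 3 counts over the NS group, a value without the counting error of COL. In OPC the COL levels were 2.47 and 2.96 CPM on 3 and 5 UMIs, and pooled they were 2.80-fold the floor taken in the same way. COP held 0 UMIs in 3 libraries and 7 in COL2. COL macrophages had 94.1 and 76.6 CPM, above the COL microglia of both libraries.

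**Figure D1:**
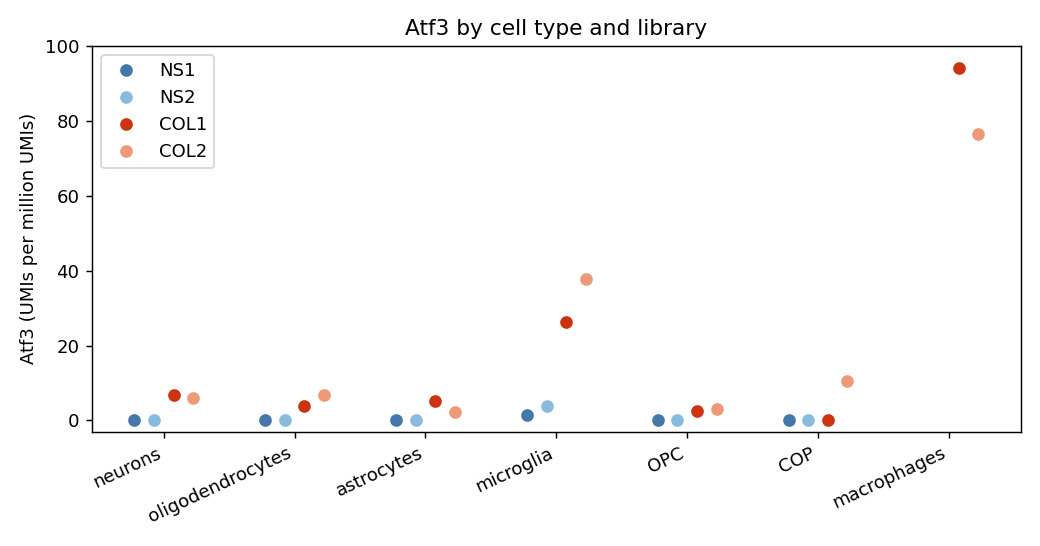
Atf3 level (CPM, linear axis) in each of 7 cell types, 1 point per library. Macrophages are shown for COL only, where they sit at 94.1 and 76.6, above microglia at 26.3 and 37.7 and neurons at 6.84 and 5.98.

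Macrophage RNA also moved with the group. Summed levels of the 7 macrophage markers in microglia were 8.03 and 3.86 CPM in NS and 63.2 and 113 CPM in COL, against 4503 and 4523 CPM in COL macrophages. Cd163 was at 0 in the microglia of all 4 libraries. Per 100 UMIs of the macrophage gene F13a1 there were 4.64 and 3.56 Atf3 UMIs in COL macrophages, 190 and 172 in microglia, 61.7 and 62.2 in oligodendrocytes, 150 and 21.1 in astrocytes, 21.4 and 23.8 in OPC, and 0 and 100 in COP, on 2 to 111 F13a1 UMIs per library in the 5 glial types. No such ratio is given for neurons, where F13a1 was already at 5.90 and 6.95 CPM in NS. It was 3.94 and 9.53 CPM in COL neurons, below and above NS. The summed macrophage markers in neurons were 7.15 and 8.48 CPM in NS and 13.17 and 28.8 CPM in COL. Of these markers, Gpnmb was 0.325 and 0.451 CPM in NS neurons and 5.58 and 12.96 CPM in COL neurons. The part of macrophage RNA in the Atf3 levels of neurons and of the glial types was not tested.

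Atf3 was concentrated in few neurons. Of the COL neurons, 133 of 2870 and 99 of 2643 held at least 1 Atf3 UMI, against 6 of 4947 and 4 of 4252 in NS. The 38 and 34 COL neurons with at least 2 UMIs held 240 of 335 and 193 of 258 Atf3 UMIs. The highest single nuclei held 33 and 36. With every nucleus thinned to 2000 UMIs, the share with an Atf3 UMI was 1.26% and 1.14% in COL and 0.0405% and 0.0236% in NS.

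**Figure D2:**
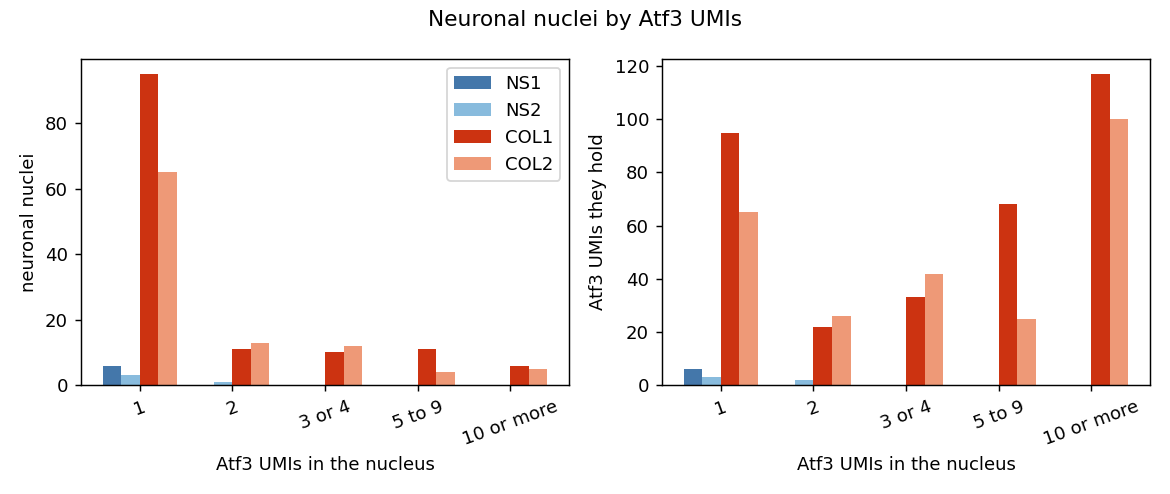
Neuronal nuclei (left) and the Atf3 UMIs they hold (right) by the number of Atf3 UMIs in the nucleus, for each library. In COL1 and COL2, 38 and 34 nuclei with 2 or more UMIs hold 240 and 193 UMIs, and NS bars are near 0.

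Both transmitter classes carried it. Nuclei were called glutamatergic or GABA by a 2-fold excess of Slc17a6 and Slc17a7 over Gad1, Gad2 and Slc32a1 UMIs, or the reverse. In COL, glutamatergic neurons had 5.24 and 5.60 CPM and GABA neurons 11.7 and 6.91 CPM, while in NS each class held at most 3 Atf3 UMIs per library. The shares of COL nuclei with an Atf3 UMI were closer, at 4.83% and 3.95% of glutamatergic and 5.12% and 3.19% of GABA neurons. The GABA share was thus the higher in COL1 and the lower in COL2. In COL1, 4 of the 6 neurons with 10 or more Atf3 UMIs were GABA, and in COL2 3 of 5.

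The other members did not follow 1 pattern. With Atf3 included, edgeR fitted between 0 and 10 of the 10 members after its filter on low counts: 10 in neurons, 8 in oligodendrocytes, 7 in microglia, 6 in astrocytes, 4 in OPC and 0 in COP. The rule used this contrast, so no call is given for a member. As a background for the lists below, edgeR called 9.29% of 17267 genes higher and 12% lower in oligodendrocytes, 10.9% and 12.1% of 11768 in microglia, 7.62% and 9.11% of 14082 in astrocytes, 8.2% and 9.52% of 12117 in OPC, and 2.28% and 2.54% of 5442 in COP. In neurons no gene of 23664 was called (0.0%), 27.9% had an unadjusted p under 0.05, and DESeq2 called 2445.

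Among the Fos proteins, Fosl2 was higher in COL in oligodendrocytes and microglia, the only glial types in which it was fitted. It was 0.915 and 1.13 CPM in NS oligodendrocytes and 3.50 and 4.29 CPM in COL, a log2 fold change of 1.97 (SE 0.42), and 5.35 and 1.29 against 9.88 and 15.8 CPM in microglia, a log2 fold change of 2.00 (SE 0.64). The groups did not overlap in either type, as for 29.1% and 30.9% of all genes with COL above NS in these types. In neurons its difference was 0.45 (SE 0.28). In OPC the COL libraries disagreed, at 14.8 and 2.96 CPM.

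By CPM, Fos differed in direction between types. In neurons it was 6.03 and 5.32 CPM in NS and 3.43 and 2.23 CPM in COL, a log2 fold change of -0.81 (SE 0.33). In oligodendrocytes it was 1.70 and 2.69 CPM in NS and 6.79 and 8.97 CPM in COL, a log2 fold change of 1.87 (SE 0.36). Astrocytes lay on the side of oligodendrocytes, with 2.15 and 4.37 against 9.62 and 7.75 CPM. Fosb was low, at most 0.758 CPM in any library's neurons, and was fitted in neurons only.

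Junb showed the same split in neurons, oligodendrocytes and astrocytes, with no overlap of CPM between groups in any of them. Of all genes, 39.0% had COL below NS without overlap in neurons, and 29.1% and 26.7% had COL above NS in oligodendrocytes and astrocytes. It was 9.42 and 7.22 CPM in NS neurons and 4.02 and 4.15 CPM in COL neurons, while in astrocytes it was 2.79 and 6.01 CPM in NS and 8.75 and 14.4 CPM in COL. Its log2 fold changes were -0.85 (SE 0.22) in neurons, 0.97 (SE 0.31) in oligodendrocytes and 1.51 (SE 0.48) in astrocytes. In microglia, where Fos was not fitted, COL lay below NS in CPM without overlap for Junb, as for 34.0% of all genes. Its log2 fold change there was small, at -0.18.

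Jund, a Jun protein expressed in most tissues without stimulation, was lower in COL by CPM in each type fitted. Over all nuclei it overlapped between the groups in UMIs per nucleus, at 0.312 and 0.222 in NS and 0.147 and 0.255 in COL. In microglia it was 70.9 and 74.6 CPM in NS and 27.7 and 26.3 CPM in COL. The COL libraries lay further apart in oligodendrocytes, at 19.4 and 42.8 CPM against 79.9 and 62.6 in NS, in OPC, at 10.7 and 26.7 against 52.3 and 50.1, and in neurons, at 9.78 and 16.9 against 32.0 and 24.7. Of all genes, 34.0% were below NS without overlap in microglia and 35.2% in astrocytes. The log2 fold changes of Jund lay between -0.94 in neurons and -1.52 in astrocytes. Jun was also lower in COL1 than in COL2: in oligodendrocytes it was 33.2 and 31.7 CPM in NS, 11.5 CPM in COL1 and 29.7 CPM in COL2, and its log2 fold changes lay between -0.58 and -0.21 in the 5 types.

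Ddit3 was 7.20 and 6.0 CPM in NS neurons and 11.2 and 10.7 CPM in COL neurons, a log2 fold change of 0.90 (SE 0.20). The share of GABA nuclei among neurons varied between libraries, at 52.1% and 39.9% in NS and 31.3% and 43.9% in COL, and overlapped between the groups. Ddit3 was 7.45 and 5.30 CPM in NS and 12.7 and 12.8 CPM in COL glutamatergic neurons, and 6.92 and 7.14 against 8.43 and 8.29 CPM in GABA neurons; the difference between the classes was not tested. In the other types the log2 fold changes of Ddit3 were 0.15 to 0.61, and the groups overlapped in oligodendrocytes, microglia and OPC. Ddit3 overlaps Mars on the opposite strand. Egr1 overlapped between groups in neurons, oligodendrocytes and microglia. By CPM, COL lay below NS without overlap in astrocytes and OPC (35.2% and 33.8% of all genes). The levels were 11.8 and 10.7 CPM in NS astrocytes and 9.62 and 6.09 CPM in COL astrocytes. In OPC they were 10.6 and 8.34 against 4.94 and 5.93 CPM. These COL levels rest on few Egr1 UMIs. Median UMIs per nucleus were 3667.5 and 3278 in NS and 5729 and 6645 in COL astrocytes, and 4569 and 4075.5 against 6935 and 7431 in OPC. Over all nuclei Egr1 was 0.0883 and 0.0548 UMIs per nucleus in NS and 0.126 and 0.104 in COL. Within glutamatergic neurons Egr1 was 9.95 and 8.92 CPM in NS and 12.1 and 12.3 CPM in COL, and in GABA neurons 13.4 and 7.66 against 8.21 and 5.53 CPM. Maff was fitted in neurons only, at 0.596 and 0.767 CPM in NS and 0.429 and 0.510 CPM in COL.

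COL macrophages held more Jun than any of the 6 fitted types, at 144 and 128 CPM. The 8 macrophage nuclei of NS2 held 3 Jun UMIs (173 CPM) and no Atf3 UMI, too few for a comparison. The COL macrophage levels of Junb were 56.8 and 50.8 CPM, of Fosl2 49.4 and 42.7 CPM, and of Fos 26.1 and 25.1 CPM. Atf3 at 94.1 and 76.6 CPM was thus second to Jun among the members. Jund was 17.7 and 35.8 CPM, Ddit3 22.4 and 23.2 CPM and Egr1 14.9 and 17.6 CPM, while Maff was 6.52 and 7.53 CPM and Fosb 0.932 and 0.627 CPM.

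**Figure D3:**
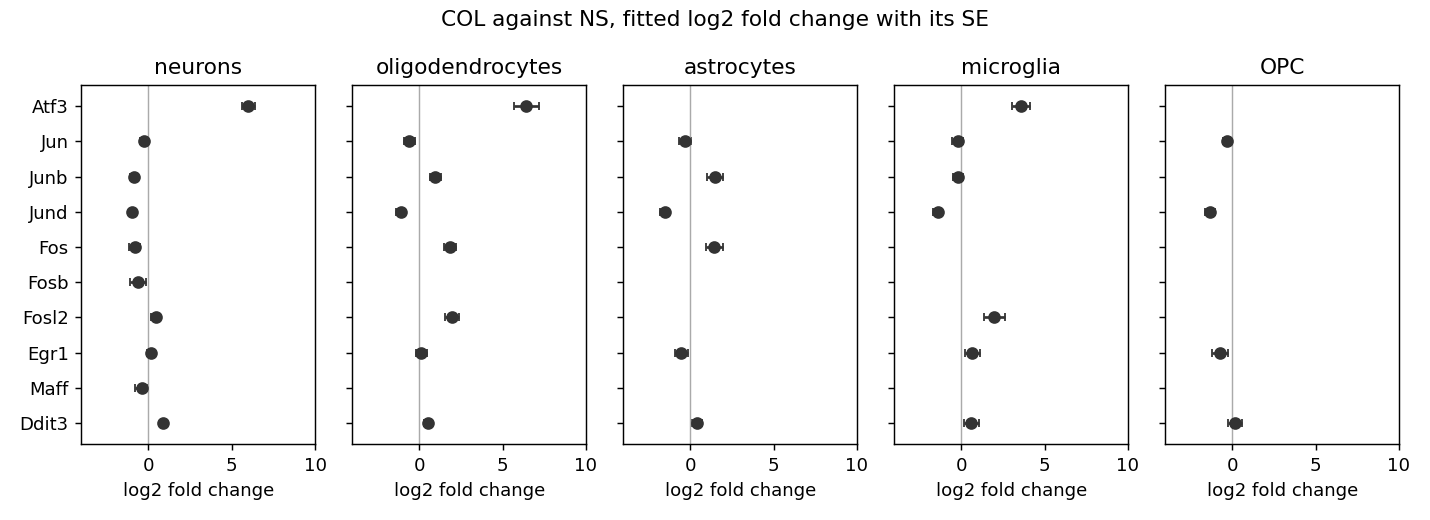
Fitted log2 fold change of COL against NS (horizontal axis) for each member that passed the filter, in 5 cell types; bars are 1 SE of the fit. Atf3 stands at 6.01 in neurons, 6.43 in oligodendrocytes and 3.61 in microglia, and Jund is below 0 in all 5.

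Baseline levels were compared between cell types within the NS libraries, a contrast that did not choose the members. In all, 6 members passed the filter on low counts (Jun, Junb, Jund, Fos, Egr1 and Ddit3), and each type was tested against the mean of the other 5 with the library as a block. Of 17049 genes, 58.4% were called in neurons, 44.9% in oligodendrocytes, 41.5% in microglia, 39.7% in astrocytes, 25.9% in OPC and 15.3% in COP, so calls are common. Over the 6 types, 14 of the members' differences were called, 10 of them higher and 4 lower. DESeq2 called 9 of these and did not call Junb and Egr1 in neurons, Ddit3 in oligodendrocytes and astrocytes, or Jund in COP. After thinning to 2000 UMIs 8 were called, without Egr1 and Fos in neurons, Jun and Ddit3 in astrocytes, Jun in OPC and Jund in COP, and Fos was then not fitted. Without the library block, 4 of the 14 were lost.

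Junb was highest in microglia, at 28.1 and 27.0 CPM, a log2 difference of 2.22 (SE 0.37, edgeR adjusted p = 8.38e-06). Fos was highest in neurons, at 6.03 and 5.32 CPM (1.40, SE 0.34, edgeR adjusted p = 0.000565). Jun was lower in neurons, at 12.7 and 13.3 CPM (-1.03, SE 0.13, edgeR adjusted p = 5.79e-08), and higher in OPC, at 42.3 and 35.5 CPM (0.81, SE 0.17, edgeR adjusted p = 0.000292). Jund was higher in oligodendrocytes, at 79.9 and 62.6 CPM (0.96, SE 0.10, edgeR adjusted p = 8.35e-10), and lower in neurons (-0.70, SE 0.12, edgeR adjusted p = 3.35e-06). Jun and Jund were thus lower in neurons than in the mean of the other types, and Fos, Junb and Egr1 were higher. That mean includes COP, where levels were low: Egr1 was 0 and 3.17 CPM there and Ddit3 2.96 and 0 CPM. Egr1 was 11.9 and 8.30 CPM in neurons, close to astrocytes at 11.8 and 10.7 CPM. Ddit3 was higher in oligodendrocytes (0.82, SE 0.27, edgeR adjusted p = 0.0134) and in astrocytes (0.75, edgeR adjusted p = 0.0474). Its levels there were 13.1 and 9.39 CPM and 13.1 and 10.1 CPM, beside 12.4 and 7.65 in OPC and 22.8 and 7.72 in microglia. Jun was also higher in oligodendrocytes (0.62, edgeR adjusted p = 6.8e-05) and lower in astrocytes (-0.44, edgeR adjusted p = 0.0237), and Jund was higher in microglia (0.47, edgeR adjusted p = 0.0206) and lower in COP (-0.99, edgeR adjusted p = 0.0247). Close to the threshold were also Junb (0.61, edgeR adjusted p = 0.042) and Egr1 (0.68, edgeR adjusted p = 0.0446) in neurons.

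**Figure D4:**
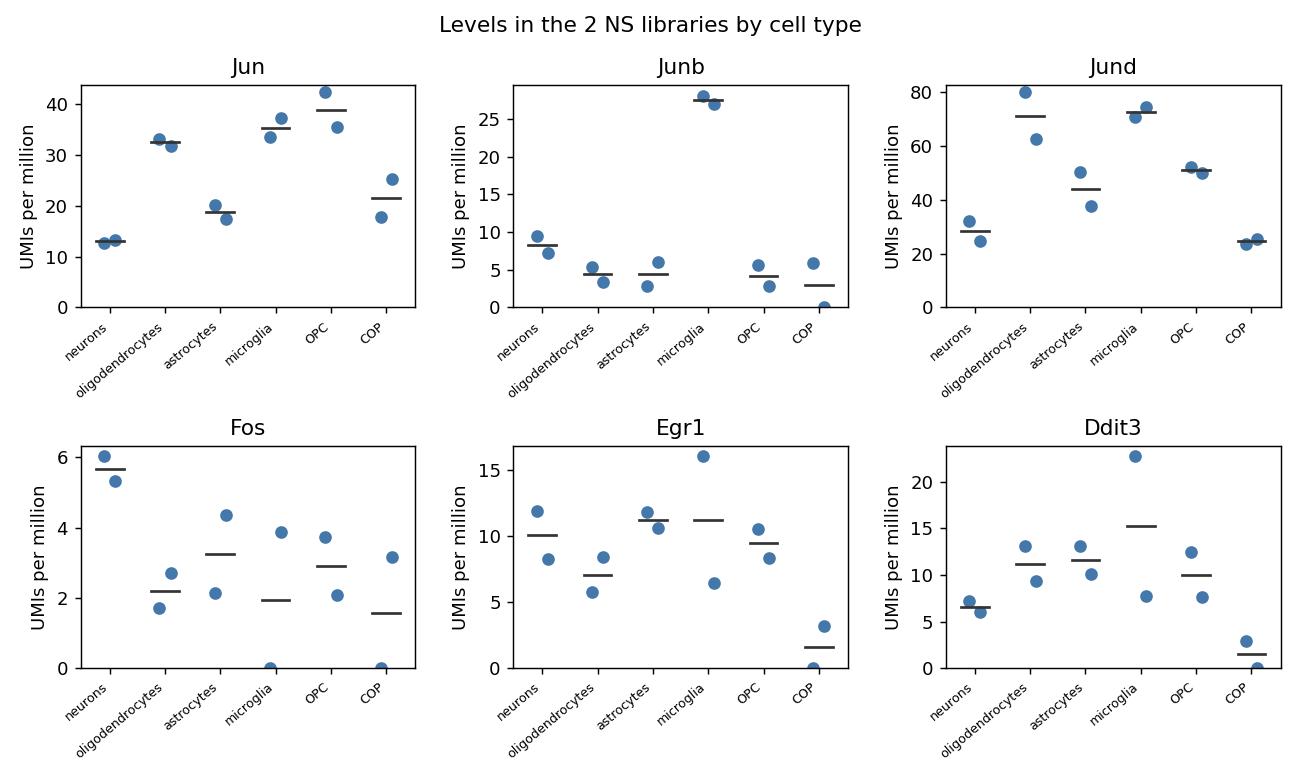
Level (CPM) of 6 members in 6 cell types of the NS libraries; points are the 2 libraries and lines their mean. Junb is highest in microglia (28.1 and 27.0) and Jun is lowest in neurons (12.7 and 13.3).

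The COL neurons with an Atf3 UMI were compared with those without, all thinned to 2000 UMIs: 36 and 30 nuclei against 2829 and 2612. The Atf3 UMI itself defined the groups and is no result. Of 12861 genes, 51 were higher and 160 lower (0.397% and 1.24%), while DESeq2 called 26 and 7. The median log2 difference over all genes was -0.33 after the TMM scaling of the fit. Sums over nuclei were fitted, so p does not measure the spread between nuclei. Ecel1, a peptidase-like protein induced by nerve damage, was 0.139 and 0.367 UMIs per nucleus with Atf3 and 0.0265 and 0.0322 without (log2 difference 2.77, SE 0.62, edgeR adjusted p = 0.0017). Lifr, a receptor of the cytokine LIF, was 0.278 and 0.333 against 0.0410 and 0.0498 (2.46, SE 0.53, edgeR adjusted p = 0.00104). Sema6a, a membrane semaphorin, was 2.50 and 0.8 against 0.505 and 0.420 (1.48, SE 0.22, edgeR adjusted p = 5.29e-08). The shares of nuclei with a Sema6a UMI were closer, at 50% and 40% with Atf3 and 33.1% and 30.2% without. Among nuclei with Atf3, Ecel1 was found in 4 and 8 and Lifr in 5 and 8. These 3 were the called genes among 15 fitted from a list of 24 axon injury and regeneration genes, whose median was 0.65 beside -0.33 over all genes.

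The bZIP gene Creb5 was higher as well, at 0.417 and 0.433 against 0.0742 and 0.0666 UMIs per nucleus. Igf2bp2, an RNA-binding protein, was 0.528 and 0.267 against 0.0209 and 0.0107, and the adhesion protein Chl1 was 1.03 and 1.47 against 0.350 and 0.400. The non-coding Gm29266 was found in 27.8% and 26.7% of nuclei with Atf3 and in 1.70% and 1.76% without. Epb41l4a, Rhoq, Hs3st5 and Clmp were also among the first 10 and higher in both libraries. The remaining pair rested on single nuclei of COL1: all 100 Gm26870 UMIs came from 2 nuclei and 89 of 90 Tmem267 UMIs from 1. This pair had the lowest p of all genes (edgeR adjusted p = 2.89e-38 and 9.94e-31), so a low p here can rest on very few nuclei.

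Among the lower genes, the cadherin Cdh18 was 0.833 and 0.933 against 1.99 and 2.52 UMIs per nucleus (-1.63, SE 0.24, edgeR adjusted p = 1.05e-08), and the GABA receptor subunit Gabrg3 was 0.889 and 1.33 against 2.41 and 2.01. Tenm2, Nkain3, Car10, Cntnap5a, Kcnip1, Rtl4, Dgkb and Dab1 were the others of the first 10. DESeq2 also called Cdh18, Tenm2, Nkain3, Car10 and Cntnap5a, and did not call Gabrg3, Kcnip1, Rtl4, Dgkb, Dab1, Mapk10, Rbfox3 or Grin2b. The stress kinase Mapk10 was lower too (-0.90, edgeR adjusted p = 0.0127). Of the 6 neuronal markers, shown after their values were seen, edgeR called 2 lower: Rbfox3, at 0.472 and 0.533 against 0.798 and 0.783 UMIs per nucleus (-0.95, edgeR adjusted p = 0.0403), and Grin2b, at 1.67 and 1.37 against 2.25 and 1.98 (-0.77, edgeR adjusted p = 0.029). The other 4 were not called. All these differences follow the TMM scaling of the fit, beside a median of -0.33 over all genes. Snap25 was 1.53 and 1.77 against 1.38 and 1.17 (0.08), Syt1 6.25 and 4.93 against 5.52 and 4.22 (-0.09 after the TMM scaling of the fit), Myt1l 1.47 and 1.33 against 1.90 and 1.77 (-0.68), and Celf4 1.75 and 2.40 against 2.35 and 2.27 (-0.46). Fos, Fosb, Fosl2 and Maff had no UMI in the nuclei with Atf3 and were not fitted. None of the other members fitted was called by edgeR: Egr1 had 2.13 (SE 1.07), Ddit3 1.5 (SE 1.06), Junb 1.02 (SE 1.75), Jun 0.88 (SE 1.30) and Jund 0.08 (SE 1.42), on at most 5 UMIs per library in nuclei with Atf3.

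**Figure D5:**
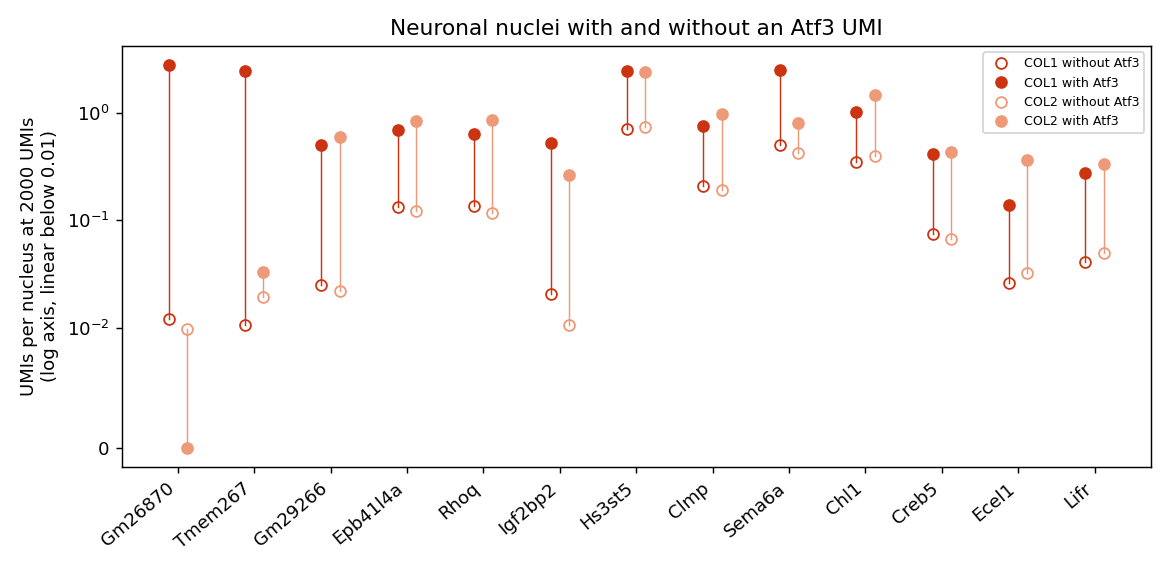
UMIs per neuronal nucleus at 2000 UMIs (log axis, linear below 0.01) for the higher genes named in the text; filled points are nuclei with an Atf3 UMI, open points those without, and colours are COL1 and COL2. Gm26870 and Tmem267 stand high in COL1 only.

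In COL macrophages, 24 and 32 nuclei with an Atf3 UMI were compared with 195 and 270 without. Of 5099 genes, 7 were higher and 2 lower (0.137% and 0.0392%), and DESeq2 called 0, with 6.02% at an unadjusted p under 0.05 in edgeR. As in neurons, p does not measure the spread between nuclei. Gpnmb, a membrane protein of lipid-laden macrophages and 1 of the markers that assigned these nuclei, was 5.71 and 4.38 UMIs per nucleus with Atf3 and 2.03 and 2.75 without (1.04, SE 0.18, edgeR adjusted p = 9.25e-05). Slc7a11, which imports cystine, was 1.67 and 0.656 against 0.672 and 0.204. Il7r, Plau, Basp1 and Alcam were higher in both libraries, and Gclc in COL1 only. Pid1 and Slc9a9 were lower.

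Relatives of the members were taken from 6 lists that were drawn up with earlier results known. In neurons none of their genes was called by edgeR, while DESeq2 called 13. In OPC edgeR called 9 of the lists' genes higher and 7 lower, but DESeq2 called 0 higher and 1 lower, and without NS2 edgeR called 0 higher and 5 lower, so each rise given for OPC below was lost in both. In microglia 9 higher and 12 lower became 2 and 3 without COL1, and in oligodendrocytes 16 higher became 6 without NS1 and 6 without NS2, so most rises in these types were also lost there. In the bZIP list of 29 genes, Mafg rose in astrocytes, microglia, oligodendrocytes and OPC, with log2 fold changes of 0.61 to 0.97, and Nfe2l1 fell in the same 4 types. Cebpd, an inflammatory C/EBP factor, rose in astrocytes from 3.22 and 4.10 to 27.1 and 28.2 CPM (2.97, SE 0.33, edgeR adjusted p = 0.000748). The medians of the list were 0.14 in oligodendrocytes, 0.13 in astrocytes, -0.09 in microglia and 0.24 in OPC. Of the called bZIP genes, 4 rose and 1 fell of 24 fitted in oligodendrocytes (9.29% and 12% of all genes), 3 and 1 of 23 in astrocytes (7.62% and 9.11%), 3 and 3 of 24 in microglia (10.9% and 12.1%), and 3 and 2 of 22 in OPC (8.2% and 9.52%).

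Among the stress kinases, 6 of 18 fitted rose in oligodendrocytes, 4 of 18 in astrocytes, 2 of 17 in microglia, 2 of 18 in OPC and 1 of 12 in COP, where 9.29%, 7.62%, 10.9%, 8.2% and 2.28% of all genes were called higher, and none was called lower by edgeR. Map3k1 rose in oligodendrocytes, astrocytes, microglia and OPC. The neuronal kinase Mapk10 was among the calls in oligodendrocytes, microglia and OPC and was the single call in COP, which was lost with DESeq2, the stricter gate, thinning, and without NS1 or NS2. In COP the summed neuronal markers were 613 and 716 CPM in NS and 1195 and 1005 CPM in COL. The list's medians were 0.23, 0.17, 0.09, 0.16 and 0.11, beside medians over all genes between -0.02 and 0.01. Of 25 other immediate early genes, Homer1 and Per1 rose among 17 fitted in oligodendrocytes, Klf6 among 10 in astrocytes and Klf10 among 9 in microglia, where Btg2 fell; the shares of all genes called higher were 9.29%, 7.62% and 10.9%. Of 11 MAP kinase phosphatases, Dusp16 fell among 7 fitted in oligodendrocytes and Dusp8 among 5 in OPC, where 12% and 9.52% of all genes were called lower.

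In the list of 28 genes of the integrated stress response and unfolded protein response, Eif2ak2, the kinase PKR, rose in oligodendrocytes (1.94), microglia (1.15) and OPC (1.13), while the chaperone Dnajb9 and the asparagine synthetase Asns fell in oligodendrocytes, astrocytes and microglia. The calls in this list were 1 higher and 3 lower of 23 fitted in oligodendrocytes (median 0.02), 1 and 2 of 21 in astrocytes (-0.15), 1 and 2 of 21 in microglia (0.14), and 1 and 0 of 20 in OPC (0.04). More of the axon list fell than rose, with 3 higher and 7 lower of 19 fitted in oligodendrocytes (median -0.59), 1 and 5 of 17 in astrocytes (-0.65), 2 and 6 of 17 in microglia (-0.25), and 3 and 4 of 14 in OPC (0.11). Of all genes, 9.29%, 7.62%, 10.9% and 8.2% were called higher and 12%, 9.11%, 12.1% and 9.52% lower in these 4 types. Of this list, Csf1, a growth factor for microglia, rose in oligodendrocytes, astrocytes, microglia and OPC, and the neuronal genes Stmn2 and Tubb3 fell in the same 4 types. Summed neuronal markers in these 4 types were 835 to 1343 CPM in NS and 1152 to 1760 CPM in COL, and their part in the result was not tested.

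Over the 24 sums of 6 types and 4 libraries, the genes with a pattern most like Atf3 were Capg (Pearson r = 0.94 of log2(CPM + 1)), Ifi203 (0.92), Ccr2 (0.91), Msr1 (0.91) and Ms4a6c (0.87). Macrophages were not among the 6 types, yet these genes were high in them: Ccr2 was at 210 and 248 CPM in COL macrophages, 21.1 and 37.7 in COL microglia and 2.44 and 5.95 in COL oligodendrocytes, and Capg at 70.8 and 72.2, 15.8 and 17.4, and 1.70 and 3.90 CPM. The part of macrophage RNA in this likeness was not tested. The sums share libraries, so r is a description. Fosl2 had 0.72 and Jun 0.14.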

How the data were processed

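Single nuclei of the thalamus were profiled on the 10x Chromium system. Per the labels, the authors' processing used Cell Ranger 1.2.0 and mm10, and the deposited values are raw UMI counts per gene and nucleus; whether intronic reads were counted is not given in the sources used here. Nuclei with more than 50 genes and under 5% mitochondrial UMIs were kept. Cell types were assigned by a negative binomial likelihood over 67 marker genes; this scoring was chosen after the data were seen. Nuclei better explained as a mixture of 2 types were set apart as possible doublets, and no doublet caller was run. Libraries shared between 8 and 31 barcodes.

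Counts were summed by library and type and tested with edgeR 4.0.16 (TMM, filterByExpr, quasi-likelihood, Benjamini-Hochberg adjusted p under 0.05), with DESeq2 1.42.0 as an alternative. Counts were also simulated for the COL against NS comparisons, with 100 genes changed at each fold. Of the 2-fold changes edgeR called 9 in neurons (23570 genes tested), 11 in oligodendrocytes (17175), 5 in astrocytes (13948), 8 in microglia (11569), 16 in OPC (12028) and 7 in COP (5370). Of the 4-fold changes it called 80, 88, 60, 61, 71 and 55, so most simulated 2-fold changes were missed. Between nuclei with and without Atf3 it called 122 of 200 simulated 4-fold changes in neurons (12883) and 169 in macrophages (4933). The simulated counts had a fixed dispersion of 0.05, not estimated from these data. Their shares therefore do not show what was missed in the real fits. Neither pools of mice nor libraries were paired by the labels. The members and lists were chosen with earlier results of these data known. The text names all members, up to 5 called genes per list and type by size, the 10 called genes of lowest p in each direction between nuclei with and without Atf3, and the 5 genes most like Atf3. Gene positions came from GENCODE M21 (GRCm38). Intervals cover counting error only, and folds against a floor leave out the counting error of COL.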

Additional observations from a re-analysis of the deposited data

Results flagged for a closer look

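By CPM, Fos and Junb moved in opposite directions in different cell types. Both COL libraries lay on 1 side of both NS libraries in the types named here. The difference between types was not tested. Over all nuclei, Fos was 0.0411 and 0.0295 UMIs per nucleus in NS and 0.0572 and 0.0496 in COL. Junb was 0.0684 and 0.0423 in NS and 0.0811 and 0.0872 in COL, so both were higher in COL by that measure. Of all genes, 39.0% lay below NS without overlap in neurons and 34.0% in microglia, and 29.1% and 26.7% lay above in oligodendrocytes and astrocytes. Both genes overlapped between the groups in OPC and COP. The log2 fold change of Fos was -0.81 in neurons, 1.87 in oligodendrocytes and 1.46 in astrocytes. That of Junb was -0.85 in neurons, 0.97 in oligodendrocytes and 1.51 in astrocytes, and in microglia it was small, at -0.18.

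Nuclei of no clear cell type entered no comparison, yet Atf3 reached 81.2 and 64.5 CPM in those of COL1 and COL2, on 43 and 49 UMIs. In those of NS 0 UMIs were seen. The pooled COL level of Atf3 was 13.7-fold a floor of 3 counts over the NS group, without the counting error of COL. Myeloid genes moved with it in these nuclei: F13a1 was 0 and 0 CPM in NS and 45.3 and 48.7 CPM in COL, Gpnmb 0 and 6.05 against 47.2 and 57.9, Mrc1 0 and 6.05 against 64.2 and 28.9, and Csf1r 36.7 and 21.2 against 140 and 120 CPM. Their part in the result was not tested.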

How the results depend on the processing

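The log2 fold change of Atf3 between COL and NS was 5.78 to 6.13 in neurons, 5.78 to 8.64 in oligodendrocytes and 3.05 to 4.61 in microglia over the alternatives run, while counts of called genes moved. In neurons the count of 0 between COL and NS became 2676 without the filter on low counts, 656 with a replicate block and 2445 with DESeq2, and 0 to 5640 when 1 library was left out (560 without COL1, 5640 without COL2). For oligodendrocytes 3671 became 5593 with the replicate block and 1404 to 6921 without 1 library. For astrocytes 2356 became 1106 with DESeq2, 1312 after thinning and 1564 to 3231 without 1 library. For microglia 2711 became 1290 with DESeq2 and 1011 to 1848 without 1 library. For OPC 2148 became 628 with DESeq2, 873 after thinning and 1106 to 2756 without 1 library. For COP 262 became 468 without the filter, 534 with the replicate block, 87 with DESeq2, 115 after thinning and 169 to 551 without 1 library. The causes were not tested.

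Among the genes of the 6 lists, the 0 calls in neurons became 16 without the filter, 1 with the replicate block, 13 with DESeq2 and 0 to 25 without 1 library. In oligodendrocytes 28 became 44 with the replicate block and 14 to 47 without 1 library, in astrocytes 18 became 10 with DESeq2 and 14 to 24 without 1 library, in microglia 21 became 9 with DESeq2 and 5 to 18 without 1 library, and in OPC 16 became 1 with DESeq2, 7 after thinning and 5 to 18 without 1 library. The 1 call in COP became 2 without the filter or with the replicate block, 0 with DESeq2, the stricter gate or thinning, and 0 to 2 without 1 library. The 14 member calls between NS cell types became 9 with DESeq2 and 8 after thinning, and 4 of them were lost without the library block. The 211 genes of Atf3 neurons became 33 with DESeq2, and the 9 of macrophages became 3 without the filter, 0 with DESeq2 and 4 without the 5% of nuclei highest in UMIs. Gclc in macrophages lay between -0.48 (without COL1) and 2.16 (without COL2), Gm26870 in neurons between -4.75 and 7.43 likewise, and Tmem267 turned to -0.13 with the stricter gate.

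The labels give same-numbered libraries no link beyond the number, and whether they shared a batch was not tested. Their deviations from the group means correlated at -0.0095 in neurons, 0.168 in oligodendrocytes, 0.145 in astrocytes, 0.0548 in microglia, 0.0765 in OPC and 0.0012 in COP. The comparison at 1000 UMIs and the stricter gate for macrophages left too few nuclei with Atf3 and were not run.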
